A study of Mus musculus with 24 samples.

Results

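The cytochrome P450 genes measured here were 51 protein-coding mouse genes. They were taken as every gene with a symbol of the form Cyp, digits, letter, digits other than *Cyp24a1* that reached 10 counts in 3 or more of the 24 libraries. Of 69 protein-coding genes of that form, 18 fell under this minimum (*Cyp11b2*, *Cyp21a1*, *Cyp26c1*, *Cyp2a5*, *Cyp2b13*, *Cyp2b9*, *Cyp2c70*, *Cyp2d9*, *Cyp2j13*, *Cyp2j5*, *Cyp2j8*, *Cyp3a57*, *Cyp4a10*, *Cyp4a14*, *Cyp4a29*, *Cyp4a32*, *Cyp4x1* and *Cyp8b1*), and over all genes 21694 of 56691 reached it. RNA-seq of poly(A) RNA from the distal jejunum covered 24 mice of 9 to 11 weeks, with 3 mice and 3 libraries in each of 8 groups. Both sexes of wild type and of *Ptk6*-/- mice were left as controls or drank 100 mM succinate for 7 days. The *Ptk6*-/- mice carried a germline disruption of *Ptk6*, the gene for an intracellular tyrosine kinase of epithelial linings, in all cell types, on a C57BL/6 background. The mice came from more than 1 litter of a single colony, and the segment of jejunum was sequenced whole.

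Cytochrome P450 enzymes are haem proteins that insert an oxygen atom into a substrate, with electrons passed on by NADPH-P450 reductase in the endoplasmic reticulum or by ferredoxin in mitochondria. In the small intestine they sit mainly in absorptive enterocytes of the villus, where enzymes of the Cyp3a, Cyp2b and Cyp2c subfamilies act on drugs and dietary compounds before these reach the liver, enzymes of the Cyp4 family hydroxylate fatty acids and leukotrienes, and Cyp2c and Cyp2j enzymes oxidise arachidonic acid. Many of the genes are switched on by ligand-bound receptors such as the aryl hydrocarbon receptor, the pregnane X receptor and the constitutive androstane receptor. Succinate in drinking water is sensed by tuft cells and is used as a mimic of infection that starts a type 2 immune response.

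Total counts lay between 8080321 and 52824743 per library, and the 51 genes held 0.0718% to 0.481% of them. *Ptk6* itself was counted 284 to 2405 times in the 12 wild type libraries and 7 to 61 times in the 12 *Ptk6*-/- libraries. Enterocyte markers were high in every library (7 of 7 genes detected), while 6 hepatocyte markers summed to 6.03 CPM or less. CPM, the usual depth-scaled counts, were taken after scaling by the trimmed mean of M values (TMM) and are used here to compare libraries. Libraries that stood apart were replicate 1 of the wild type control males, where the 18S ribosomal RNA gene *Rn18s-rs5* took 51.2% of counts, replicate 1 of the succinate-treated *Ptk6*-/- males, with the lowest total and 29.7% of its counts on that gene, and replicate 2 of the wild type females given succinate, where 6 heart markers summed to 17153 CPM against 13.2 to 208 elsewhere. The 6 lung markers, which lie near 0 in most libraries, were present in 7 female libraries and are given beside *Cyp2f2*.

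The level of the 51 genes was uneven. By FPKM (fragments scaled by transcript length and by depth, the deposited values used here to compare genes), 14 genes averaged at least 10, 23 at least 1, and 28 under 1. The 6 highest genes together made up 65.7% to 80.0% of the summed P450 FPKM of a library, with a median of 74.2%. *Cyp4f14* alone made up 34.9% to 47.7%. In all 24 libraries, 24 of the 51 genes had at least 10 counts, and 23 had 0 counts in at least 1 library. The median spread between mice of a group, as the SD of log2 CPM, was 0.84 for the P450 genes and 0.59 over all 21694 genes.

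**Figure D1:**
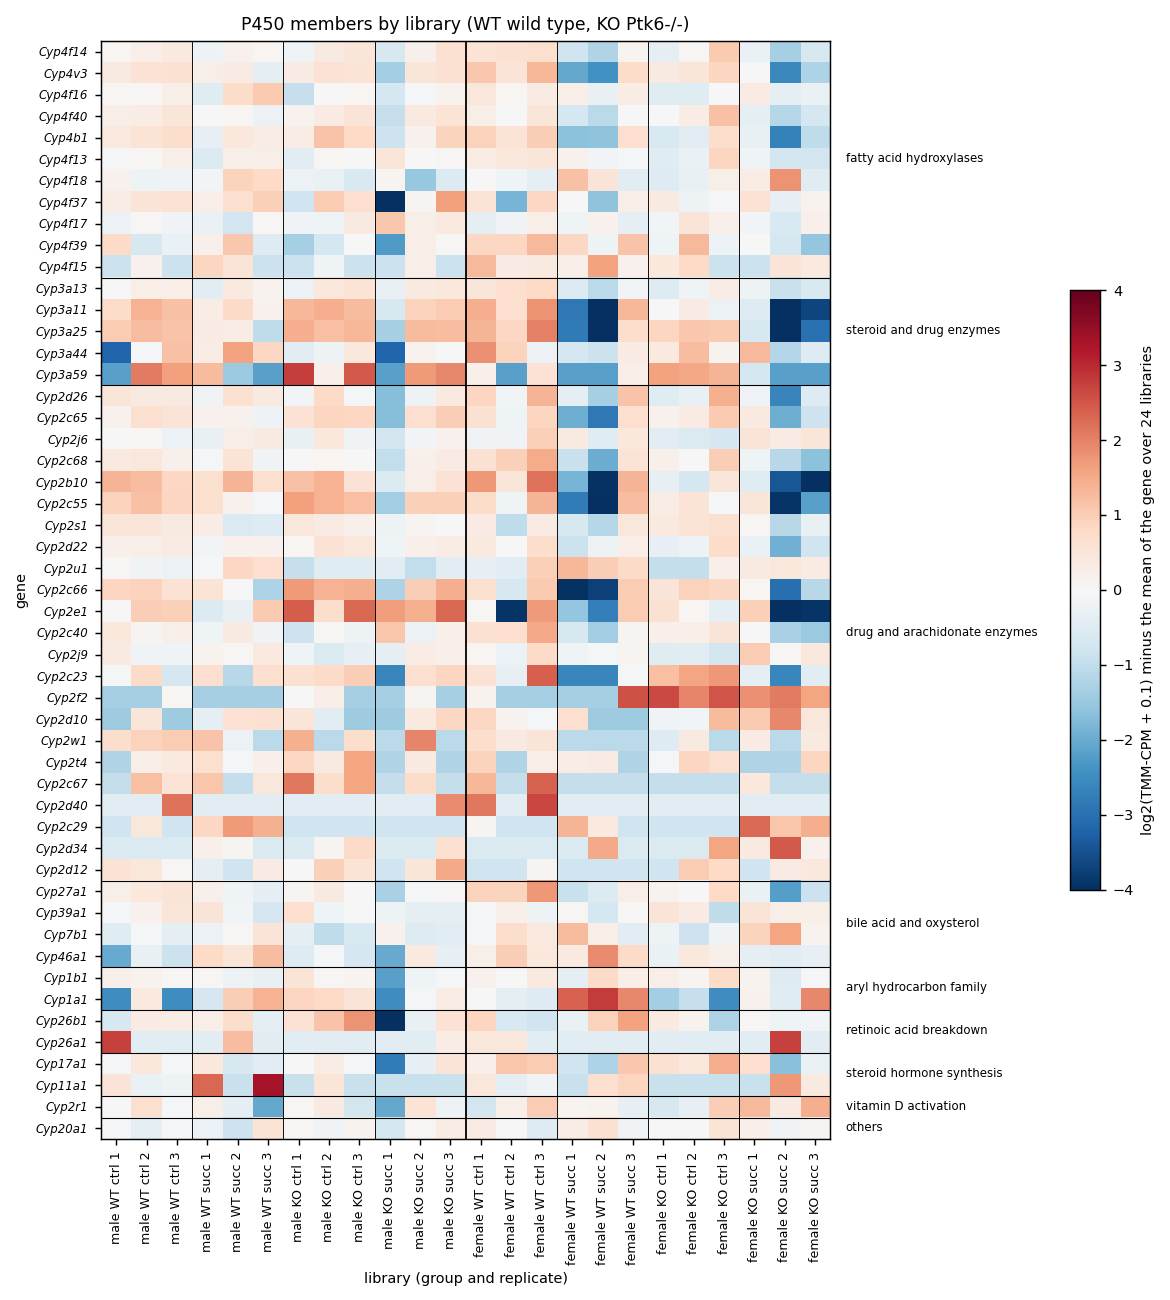
Heat map of the 51 cytochrome P450 genes (rows) in the 24 libraries (columns, ordered by group). Colour gives log2 of TMM-normalised CPM with 0.1 added, minus the mean of the gene over the 24 libraries (red above it, blue below it), and rows are grouped by the role of the enzyme. Cyp3a11, Cyp3a25 and Cyp2b10 are deep blue in 4 of the 6 succinate-treated females, and replicate 3 of the wild type and replicate 1 of the Ptk6-/- mice are not.

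Among the 11 fatty acid hydroxylases of the Cyp4 family, *Cyp4f14* had the highest FPKM (mean 309). *Cyp4f14* (ENSMUSG00000024292, chromosome 17, 33124044 to 33136316, minus strand) encodes a hydroxylase of fatty acids and leukotriene B4. In males, *Cyp4f14* was at 999, 1132 and 1237 CPM in wild type controls, 835, 1065 and 997 in wild type mice given succinate, 845, 1209 and 1338 in *Ptk6*-/- controls and 605, 1098 and 1454 in *Ptk6*-/- mice given succinate. In females, it was at 1386, 1436 and 1532 CPM in wild type controls, 545, 411 and 1026 in wild type mice given succinate, 749.5, 977 and 1945 in *Ptk6*-/- controls and 798, 380.4 and 609 in *Ptk6*-/- mice given succinate. The female wild type controls lay above every succinate-treated female, and among *Ptk6*-/- females the groups overlapped. *Cyp4v3* (ENSMUSG00000079057, chromosome 8, 45757981 to 45786253, minus strand), the mouse counterpart of the fatty acid hydroxylase gene CYP4V2, had a mean FPKM of 53.3. Male levels of *Cyp4v3* were 288, 339 and 339 CPM in wild type controls, 263, 281 and 176 in wild type mice given succinate, 285, 339 and 327 in *Ptk6*-/- controls and 86.7, 314 and 344 in *Ptk6*-/- mice given succinate. Female levels were 473, 322 and 559 CPM in wild type controls, 54.1, 41.6 and 372 in wild type mice given succinate, 287, 314 and 411 in *Ptk6*-/- controls and 228, 38.0 and 95.6 in *Ptk6*-/- mice given succinate. In the wild type females given succinate, 2 mice were far below all controls and the third lay within them. *Cyp4f16* (ENSMUSG00000048440, chromosome 17, 32755532 to 32770772, plus strand) had a mean FPKM of 41.5, with 176, 173 and 196 CPM in wild type controls, 118, 275 and 344 in wild type mice given succinate, 88.3, 163 and 176 in *Ptk6*-/- controls and 102, 159 and 183 in *Ptk6*-/- mice given succinate for males. For females, *Cyp4f16* stood at 228, 175 and 208 CPM in wild type controls, 201, 136 and 205 in wild type mice given succinate, 118, 118 and 165 in *Ptk6*-/- controls and 209.5, 125 and 139 in *Ptk6*-/- mice given succinate. The groups overlapped for this gene except between the genotypes in control females. *Cyp4f40* (ENSMUSG00000090700, chromosome 17, 32877874 to 32895888, plus strand) had a mean FPKM of 30.4. Its males held 114, 118 and 135 CPM in wild type controls, 95.2, 101 and 82.3 in wild type mice given succinate, 107, 121 and 139 in *Ptk6*-/- controls and 50.7, 127 and 143 in *Ptk6*-/- mice given succinate. Its females held 114, 95.4 and 136 CPM in wild type controls, 59.5, 45.8 and 95.2 in wild type mice given succinate, 95.8, 119 and 216 in *Ptk6*-/- controls and 73.5, 43.4 and 59.7 in *Ptk6*-/- mice given succinate. In females of both genotypes and in wild type males, the mice given succinate were all lower than their controls. *Cyp4b1*, which hydroxylates medium-chain fatty acids, ranged over 11.4 to 167 CPM (mean FPKM 29.0), *Cyp4f13* over 35.0 to 107 CPM and *Cyp4f18*, a leukotriene B4 hydroxylase known from neutrophils, over 2.16 to 22.6 CPM. The remaining Cyp4 genes were low. *Cyp4f37* reached 7.32 CPM, *Cyp4f17* 4.39, *Cyp4f39* 1.10 and *Cyp4f15* 0.454.

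The 5 genes of the Cyp3a subfamily, whose enzymes oxidise steroids, bile acids and many drugs, spanned mean FPKM values from 0.292 for *Cyp3a59* to 91.4 for *Cyp3a13*. *Cyp3a13* (ENSMUSG00000029727, chromosome 5, 137891194 to 137919881, minus strand) had the smallest spread between mice of a group among the 6 highest genes (SD of log2 CPM 0.37). In males *Cyp3a13* had 353, 424 and 422 CPM in wild type controls, 258, 459.8 and 386 in wild type mice given succinate, 298, 470.4 and 508 in *Ptk6*-/- controls and 287, 454 and 473 in *Ptk6*-/- mice given succinate. In females *Cyp3a13* had 495, 558 and 609 CPM in wild type controls, 242, 168 and 328 in wild type mice given succinate, 245, 315 and 429 in *Ptk6*-/- controls and 304, 191 and 233 in *Ptk6*-/- mice given succinate. All 3 wild type control females were above every other female. *Cyp3a11* (ENSMUSG00000056035, chromosome 5, 145791236 to 145816774, minus strand) and *Cyp3a25* (ENSMUSG00000029630, chromosome 5, 145914004 to 145946428, minus strand) had mean FPKM values of 20.4 and 19.7, and *Cyp3a11*, a textbook target of the pregnane X receptor, was picked out after its values were seen. Males had *Cyp3a11* at 152, 237 and 203 CPM in wild type controls, 112, 155 and 101 in wild type mice given succinate, 229, 246 and 219 in *Ptk6*-/- controls and 58.1, 170.3 and 183 in *Ptk6*-/- mice given succinate. Females had *Cyp3a11* at 247, 143 and 314 CPM in wild type controls, 12.4, 5.19 and 227 in wild type mice given succinate, 89.0, 114 and 77.0 in *Ptk6*-/- controls and 63.5, 5.50 and 6.94 in *Ptk6*-/- mice given succinate. Among the succinate-treated females, replicates 1 and 2 of the wild type and 2 and 3 of the *Ptk6*-/- mice were far below all other libraries, while replicate 3 of the wild type mice lay within the controls. *Cyp3a25* in males measured 67.8, 80.4 and 75.2 CPM in wild type controls, 42.3, 41.3 and 16.6 in wild type mice given succinate, 92.6, 78.5 and 85.7 in *Ptk6*-/- controls and 13.4, 80.7 and 79.9 in *Ptk6*-/- mice given succinate. *Cyp3a25* in females measured 87.0, 59.8 and 138 CPM in wild type controls, 4.63, 1.01 and 54.7 in wild type mice given succinate, 61.7, 71.7 and 69.8 in *Ptk6*-/- controls and 21.4, 1.24 and 4.14 in *Ptk6*-/- mice given succinate. The 4 lowest libraries were again those 4 succinate-treated females, and replicate 3 of the wild type females given succinate, at 54.7 CPM, was just under the lowest wild type control female. *Cyp3a44* stayed at or under 3.04 CPM and *Cyp3a59* at or under 2.97. Reads of the Cyp3a, Cyp2c, Cyp2d and Cyp4f genes can be shared between close paralogues, and the sources used here do not say how the counting treated them, so values of the lower members are uncertain.

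The 23 Cyp2 genes of drug and arachidonic acid metabolism were led by *Cyp2d26* (ENSMUSG00000022445, chromosome 15, 82674302 to 82678495, minus strand), with a mean FPKM of 48.5. For *Cyp2d26* the males gave 140.2, 130.4 and 129 CPM in wild type controls, 90.8, 154 and 129 in wild type mice given succinate, 92.9, 174 and 95.8 in *Ptk6*-/- controls and 30.7, 87.4 and 133 in *Ptk6*-/- mice given succinate. The females gave 182, 92.3 and 256 CPM in wild type controls, 79.0, 39.9 and 219.6 in wild type mice given succinate, 71.3, 81.3 and 268 in *Ptk6*-/- controls and 92.0, 15.9 and 70.2 in *Ptk6*-/- mice given succinate for *Cyp2d26*. Mice of 1 group differed widely here, and control and succinate-treated females overlapped in each genotype. Next by FPKM came *Cyp2c65* (mean 27.2, 8.01 to 119 CPM), an enzyme that oxidises arachidonic acid, *Cyp2j6* (16.8, 46.6 to 149.6 CPM), of a subfamily of fatty acid epoxygenases, *Cyp2c68* (14.9, 7.72 to 86.6 CPM), *Cyp2b10* (11.4, 0.577 to 95.8 CPM), a textbook target of the constitutive androstane receptor, *Cyp2c55* (9.57, 1.01 to 54.3 CPM), *Cyp2s1* (7.37, 21.1 to 72.6 CPM) and *Cyp2d22* (6.42, 8.60 to 54.7 CPM). *Cyp2u1*, which hydroxylates long-chain fatty acids, averaged 2.98 FPKM, *Cyp2c66* 2.64 and *Cyp2e1*, which oxidises ethanol and acetone, 1.66. Under a mean FPKM of 1 were *Cyp2c40*, with 0.780 to 6.91 CPM, *Cyp2j9*, with 1.67 to 5.77 CPM, and *Cyp2c23*, with 0 to 3.11 CPM. The other genes of the group did not exceed 1.44 CPM, namely *Cyp2f2*, *Cyp2d10*, *Cyp2w1*, *Cyp2t4*, *Cyp2c67*, *Cyp2d40*, *Cyp2c29*, *Cyp2d34* and *Cyp2d12*.

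Genes of sterol, vitamin and hormone metabolism were lower. *Cyp27a1* (ENSMUSG00000026170, chromosome 1, 74752733 to 74777051, plus strand), which encodes the mitochondrial sterol 27-hydroxylase of bile acid synthesis, was the highest of the 4 bile acid and oxysterol genes (mean FPKM 10.1). The oxysterol hydroxylases *Cyp39a1* and *Cyp7b1* and the cholesterol 24-hydroxylase *Cyp46a1* ranged over 1.53 to 5.15 CPM, 1.02 to 6.65 CPM and 0 to 1.39 CPM. *Cyp8b1*, the sterol 12-alpha-hydroxylase, was among the genes under the minimum. The aryl hydrocarbon receptor targets *Cyp1b1* and *Cyp1a1* ranged over 1.10 to 9.05 CPM and 0 to 3.80 CPM. *Cyp26b1* and *Cyp26a1*, which break down retinoic acid, ranged over 0 to 12.1 CPM and 0 to 0.809 CPM. *Cyp17a1* and *Cyp11a1*, enzymes of steroid hormone synthesis, reached 1.79 and 1.74 CPM. *Cyp2r1*, a vitamin D 25-hydroxylase, reached 1.05 CPM. *Cyp20a1*, an enzyme without an assigned substrate, ranged over 2.79 to 7.65 CPM.

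Many of the genes lie in clusters in the genome (positions of GRCm39, as deposited). Chromosome 19 holds 7 Cyp2c genes between 38995463 and 39801258, with *Cyp2c23* apart from them at 43993461 to 44017647. Chromosome 17 holds 8 Cyp4f genes between 32671697 and 33166376, and chromosome 15 holds 6 Cyp2d genes between 82254728 and 82678495. On chromosome 5, 5 Cyp3a genes lie between 137891194 and 146050097, with *Cyp3a13* apart from the rest. Neighbours differed in level. *Cyp4f14* had 308.9 FPKM on average and *Cyp4f13*, of the same cluster, 9.67.

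The 250 bases before the transcription start are shown for 4 genes on which the results below turn: *Cyp3a11*, *Cyp3a25* and *Cyp27a1*, which had lower values after succinate on average over the groups, and *Cyp1a1*, which had higher ones on average and in females but not in *Ptk6*-/- males. Sequences are those of RefSeq on GRCm38.p6, a build other than that of the counts, where 42 of the 51 genes had an entry, and they run 5′ to 3′ along the gene. Capitals mark TATAAA, the nuclear receptor hexamers AGGTCA and AGTTCA, the core GCGTG of the element bound by the aryl hydrocarbon receptor, and GGGCGG, a GC box, each searched on both strands. On the other strand AGGTCA appears as TGACCT, while AGTTCA appears as TGAACT and GGGCGG as CCGCCC.
Cyp3a11 (chr5:145879855-145880104, minus strand): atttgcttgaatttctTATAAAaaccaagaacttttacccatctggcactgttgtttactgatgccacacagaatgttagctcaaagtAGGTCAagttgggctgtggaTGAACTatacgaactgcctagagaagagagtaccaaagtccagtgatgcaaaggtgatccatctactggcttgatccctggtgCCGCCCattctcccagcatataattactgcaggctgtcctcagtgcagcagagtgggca
Cyp3a25 (chr5:146009619-146009868, minus strand): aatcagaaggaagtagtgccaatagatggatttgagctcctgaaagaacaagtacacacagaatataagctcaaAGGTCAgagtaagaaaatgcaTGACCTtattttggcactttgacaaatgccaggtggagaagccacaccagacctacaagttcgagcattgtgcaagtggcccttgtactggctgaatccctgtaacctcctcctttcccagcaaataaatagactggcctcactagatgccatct
Cyp27a1 (chr1:74713285-74713534, plus strand): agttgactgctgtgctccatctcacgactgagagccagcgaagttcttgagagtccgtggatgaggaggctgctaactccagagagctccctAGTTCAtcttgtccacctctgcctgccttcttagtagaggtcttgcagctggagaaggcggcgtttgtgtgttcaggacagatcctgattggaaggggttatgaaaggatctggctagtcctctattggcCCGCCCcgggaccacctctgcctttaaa
Cyp1a1 (chr9:57697363-57697612, plus strand): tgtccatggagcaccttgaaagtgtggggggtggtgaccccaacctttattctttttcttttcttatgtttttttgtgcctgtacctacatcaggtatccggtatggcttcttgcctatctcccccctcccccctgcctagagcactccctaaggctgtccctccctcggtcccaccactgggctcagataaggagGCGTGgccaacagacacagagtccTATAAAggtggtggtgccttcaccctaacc

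*Cyp3a11* had 4 of these matches, with AGGTCA 162 and AGTTCA 142 bases before the start, and *Cyp3a25* had AGGTCA at 176 and 155. *Cyp27a1* had AGTTCA at 158 and GGGCGG at 28, and *Cyp1a1* had GCGTG at 54 and TATAAA at 30. No match overlapped another in these windows. Over the 42 P450 windows, TATAAA was found in 13 (31% against 13% of all 27025 windows of that length), AGGTCA in 7 (16.7% against 13.8%), AGTTCA in 6 (14.3% against 11.9%), GCGTG in 12 (28.6% against 28.2%) and GGGCGG in 14 (33.3% against 32.9%). A match describes the letters and was not tested as a binding site.

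Whether any of the 8 groups differed was asked first, in 1 edgeR fit of the 24 libraries. *Cyp2u1* was called (adjusted p under 0.05 and at least 2-fold between the highest and lowest group mean) as the only P450 gene of 51, where 2.54% of all 21694 genes were called. *Cyp2u1* (ENSMUSG00000027983, chromosome 3, 131082090 to 131096873, minus strand) in males lay at 19.7, 17.6 and 16.2 CPM in wild type controls, 18.6, 34.6 and 30.4 in wild type mice given succinate, 10.2, 13.9 and 13.6 in *Ptk6*-/- controls and 14.0, 9.70 and 13.9 in *Ptk6*-/- mice given succinate. Females had 15.4, 14.2 and 37.7 CPM in wild type controls, 48.1, 37.8 and 32.4 in wild type mice given succinate, 9.94, 9.96 and 21.9 in *Ptk6*-/- controls and 24.7, 26.3 and 24.1 in *Ptk6*-/- mice given succinate for *Cyp2u1*. Wild type mice given succinate were the highest group of each sex, and the *Ptk6*-/- males were the lowest with the *Ptk6*-/- control females. The group means of *Cyp2u1* spanned 1.66 on the log2 scale (edgeR adjusted p = 0.0334, range over the alternatives 0.000205 to 0.131). The call was kept when leaving out replicate 1 of the wild type control males, of the succinate-treated wild type or *Ptk6*-/- males or of the succinate-treated *Ptk6*-/- females, any wild type control female, replicate 3 of the wild type females given succinate or replicate 3 of the *Ptk6*-/- control females (edgeR adjusted p 0.00714 to 0.0499). It was lost when any 1 of the other 15 libraries was left out (0.0503 to 0.105) and without the 3 libraries that stood apart (0.131). At an unadjusted p under 0.05 there were 14 of the 51 genes, against 15.3% of all genes. DESeq2 called 8 of the 45 to which it gave an adjusted p, where it called 9.74% of all genes, namely *Cyp1a1*, *Cyp27a1*, *Cyp2c40*, *Cyp2u1*, *Cyp3a13*, *Cyp46a1*, *Cyp4f40* and *Cyp7b1*. Without replicate 3 of the wild type females given succinate edgeR called 11 of the 51 genes (*Cyp27a1*, *Cyp2b10*, *Cyp2c29*, *Cyp2c66*, *Cyp2c68*, *Cyp2f2*, *Cyp2u1*, *Cyp3a11*, *Cyp3a25*, *Cyp4b1* and *Cyp4v3*), against 6.24% of all 21648 genes tested. Among them *Cyp2c29* (median count 0) and *Cyp2f2* (median count 3) had whole groups at 0 counts, so that their fold was not measured.

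Succinate was compared with control as an average over both sexes and genotypes, since the study gave it to activate tuft cells. More P450 genes had low than high values after succinate. None of the 51 was called by edgeR (adjusted p under 0.05 and 2-fold), where 0.728% of all genes were. DESeq2 called *Cyp3a25* and *Cyp1a1*, and 1.92% of all genes. At an unadjusted p under 0.05, 17 P450 genes were lower and 6 higher, where 6.94% of all genes were lower and 9.17% higher (16.1% together). The median log2 difference of the 51 genes was -0.51, and -0.32 with the 9 genes that had a group at 0 counts set to their bound, beside -0.0025 over all genes. The lower genes were *Cyp4f40*, *Cyp4f14*, *Cyp4v3* and *Cyp4b1* of the fatty acid hydroxylases, *Cyp3a25*, *Cyp3a13*, *Cyp3a11* and *Cyp3a59*, and *Cyp2c68*, *Cyp2s1*, *Cyp2d22*, *Cyp2c23*, *Cyp2b10*, *Cyp2c40*, *Cyp2c66* and *Cyp2c65* beside *Cyp27a1*. The 6 higher ones were *Cyp2u1*, *Cyp1a1*, *Cyp7b1*, *Cyp2j9*, *Cyp2d34* and *Cyp4f18*. Counts were low for some genes on both sides. At least 10 counts were reached in only 3 libraries for *Cyp2d34*, 15 for *Cyp3a59* and 18 each for *Cyp1a1* and *Cyp2c23*.

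*Cyp27a1* had the smallest p. In males *Cyp27a1* was measured at 31.0, 35.0 and 37.1 CPM in wild type controls, 30.4, 23.4 and 19.9 in wild type mice given succinate, 28.3, 33.5 and 25.7 in *Ptk6*-/- controls and 10.7, 25.5 and 27.2 in *Ptk6*-/- mice given succinate. In females *Cyp27a1* was measured at 49.9, 48.7 and 86.5 CPM in wild type controls, 13.9, 17.9 and 31.4 in wild type mice given succinate, 28.6, 26.7 and 45.6 in *Ptk6*-/- controls and 22.0, 5.54 and 14.5 in *Ptk6*-/- mice given succinate. Each succinate-treated female lay below each control female of the same genotype, and in wild type males the succinate group lay below the controls as well. The average log2 difference of *Cyp27a1* was -0.94 (standard error 0.21, edgeR adjusted p = 0.0298), which passed the p threshold and not the 2-fold one, and 1.03% of all genes passed that p threshold. Across the alternatives the adjusted p ran from 0.00118 to 0.107, the last without the 3 libraries that stood apart (log2 difference -0.84). With 1 library left out at a time it stayed under 0.05 in 14 of 24 fits and lay between 0.0515 and 0.0716 in the other 10, which left out replicate 2 or 3 of the wild type control males, replicate 2 or 3 of the succinate-treated wild type males, replicate 1 or 2 of the *Ptk6*-/- control males, replicate 3 of the wild type control females, replicate 1 or 2 of the succinate-treated wild type females or replicate 3 of the succinate-treated *Ptk6*-/- females. Next came *Cyp4f40*, at -0.66 (standard error 0.17, edgeR adjusted p = 0.0695), and *Cyp3a25*, at -1.72 (standard error 0.48, edgeR adjusted p = 0.0962). Over the alternatives the adjusted p of *Cyp4f40* lay between 0.00791 and 0.206 and that of *Cyp3a25* between 0.00151 and 0.203.

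These counts changed when single libraries were left out. Without replicate 3 of the wild type females given succinate, edgeR called 10 P450 genes of 51 for the average succinate effect, all lower (*Cyp27a1*, *Cyp2b10*, *Cyp2c23*, *Cyp2c55*, *Cyp2c65*, *Cyp2c66*, *Cyp3a11*, *Cyp3a25*, *Cyp4b1* and *Cyp4v3*), where 2.49% of all 21648 genes were called. Their log2 differences then ran from -1.04 for *Cyp27a1* to -2.99 for *Cyp2c23*, with adjusted p values from 0.00151 to 0.0152. Without replicate 1 of the succinate-treated *Ptk6*-/- females 1.06% of all genes were called and the P450 genes among them were 4, namely *Cyp27a1* (-1.06), *Cyp2b10* (-1.70), *Cyp3a11* (-1.72) and *Cyp3a25* (-2.15). Without replicate 2 of the wild type control males, *Cyp1a1* was called, with 0.449% of all genes. The remaining mice of that group had no counts of *Cyp1a1*, so that its 3.33 (edgeR adjusted p = 0.00968) is not a measured size. Without the 3 libraries that stood apart, 0 of 49 genes tested were called, beside 0.423% of all genes, and 20 had an unadjusted p under 0.05, 15 of them lower, where 11.7% of all genes had such a p.

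**Figure D2:**
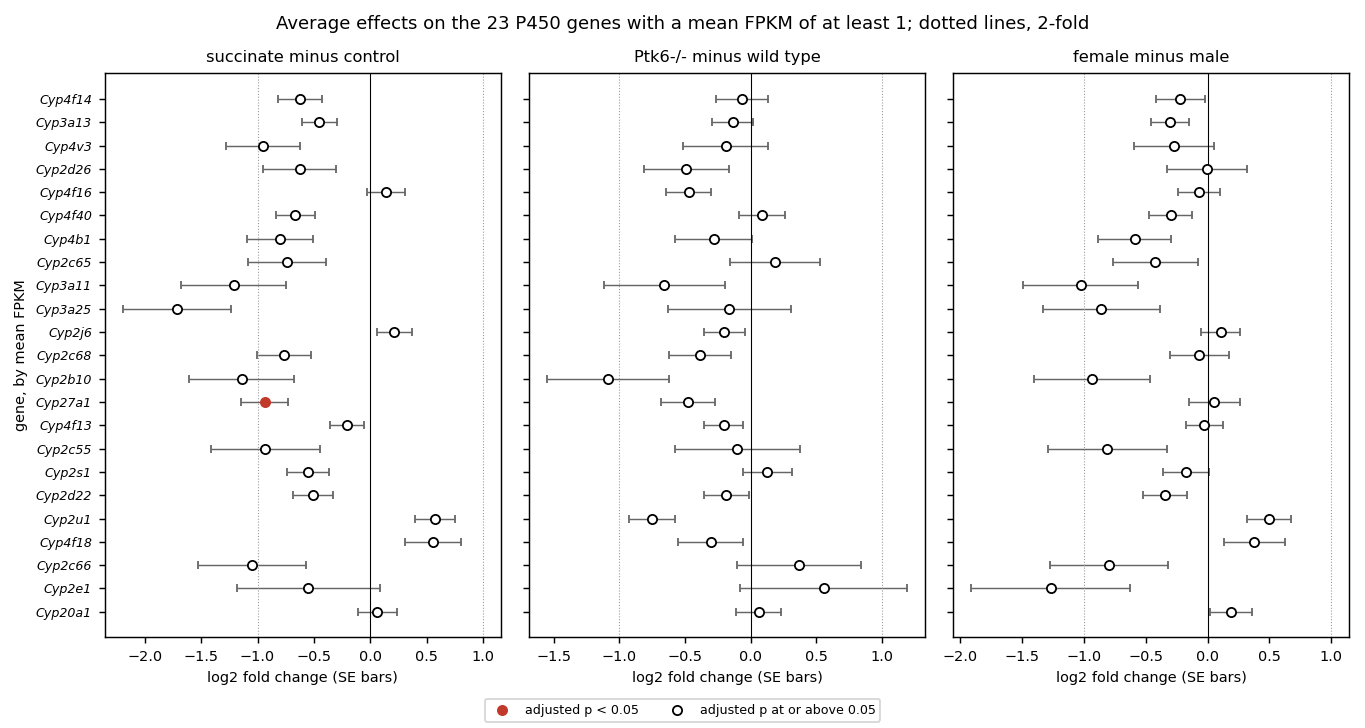
Average succinate, genotype and sex effects of the 23 cytochrome P450 genes whose FPKM averaged 1 or more, as log2 differences with bars of 1 standard error from the edgeR fit of 24 libraries. Red marks an adjusted p under 0.05, reached only by Cyp27a1 for succinate (-0.94), and the points for succinate lie mostly left of 0. Dotted lines mark 2-fold.

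In *Ptk6*-/- females, *Cyp3a25*, *Cyp4f40* and *Cyp27a1* had lower values after succinate than in any control mouse. *Cyp2j6* had higher values there than in any *Ptk6*-/- control female. For this comparison edgeR called 0 of 42 genes tested, where 0.0879% of all genes were called. DESeq2 called 4, *Cyp2c29*, *Cyp2j6*, *Cyp3a25* and *Cyp3a59*, and 2.25% of all genes. When replicate 1 of the succinate-treated *Ptk6*-/- females was left out, edgeR called *Cyp3a11* (-3.92, adjusted p = 0.0283) and 0.154% of all genes. Unadjusted p values under 0.05 were found for 15 genes, 10 lower and 5 higher, beside 10.7% of all genes (5.84% lower and 4.81% higher). *Cyp1a1* and *Cyp2c29*, both among the higher genes, were tested only because the succinate-treated group reached the minimum. The 2 groups of mice did not overlap for 18 genes, where 21.2% of all genes did not overlap. The median log2 difference was -0.78 over the 42 genes and -0.04 over all genes. *Cyp3a25* gave -2.96 (standard error 0.89, edgeR adjusted p = 0.389), *Cyp4f40* -1.31 (standard error 0.38, edgeR adjusted p = 0.377) and *Cyp27a1* -1.30 (standard error 0.49, edgeR adjusted p = 0.439). *Cyp2j6* (ENSMUSG00000052914, chromosome 4, 96404375 to 96441898, minus strand), looked at after its values were seen, had higher values instead. Males had *Cyp2j6* at 76.3, 82.9 and 66.2 CPM in wild type controls, 63.4, 92.1 and 99.5 in wild type mice given succinate, 62.7, 104 and 70.7 in *Ptk6*-/- controls and 46.6, 72.9 and 88.0 in *Ptk6*-/- mice given succinate. For females, *Cyp2j6* was at 70.9, 70.0 and 149.6 CPM in wild type controls, 101, 55.6 and 103 in wild type mice given succinate, 57.0, 51.9 and 48.8 in *Ptk6*-/- controls and 112, 97.5 and 109.8 in *Ptk6*-/- mice given succinate. All 3 *Ptk6*-/- females given succinate were above their controls, with a log2 difference of 0.99 (standard error 0.23, edgeR adjusted p = 0.285), and the wild type females overlapped. *Cyp2c29* (ENSMUSG00000003053, chromosome 19, 39257849 to 39319143, plus strand), an arachidonic acid epoxygenase of the Cyp2c cluster, was at the edge of detection. In *Ptk6*-/- females it had 41, 14 and 22 counts after succinate and 0 in every control, at least 6.27-fold higher against a floor of 3 counts per library. It reached the minimum of 10 counts in 3 libraries of this fit only through the succinate-treated group, so that it had to differ, and its DESeq2 call is given only as a description. With the Cyp2c genes summed to 1 row the log2 difference was -1.20, the opposite direction.

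In wild type females edgeR called 0 of 39 P450 genes tested for succinate, where 0% of all genes were called. DESeq2 called *Cyp1a1* and *Cyp27a1*, and 1.38% of all genes. At an unadjusted p under 0.05 there were 6 genes (7.77% of all genes), 1 higher and 5 lower, beside 5.28% and 2.49% of all genes, and 9 genes did not overlap between the groups (13.3% of all genes). The median log2 difference was -0.63, and 0.03 over all genes. Without replicate 3 of the wild type females given succinate, 11 of 38 genes were called by edgeR, 10 lower and *Cyp1a1* higher, where 3.23% of all genes were called. The largest of the decreases in that fit were *Cyp3a25* at -5.01, *Cyp2c66* at -4.78 and *Cyp3a11* at -4.69. That mouse lay near the controls for *Cyp3a11* (227 CPM), *Cyp4v3* (372), *Cyp2b10* (53.6) and *Cyp2c66* (9.66). Of the 3 mice it had the most enterocyte marker RNA (21608 CPM against 9511 and 15194) and the least tuft marker RNA (38.9 against 104.9 and 108), and it carried lung markers. Their part in the result was not tested. The fit without replicate 3 kept replicate 2, which held heart transcripts. With replicate 2 left out instead, edgeR called 0 of 39 genes, where 0% of all genes were called.

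*Cyp1a1* (ENSMUSG00000032315, chromosome 9, 57595211 to 57611107, plus strand), the best known target of the aryl hydrocarbon receptor, was singled out after its values were seen. Its male values were 0, 0.625 and 0 CPM in wild type controls, 0.246, 0.992 and 1.35 in wild type mice given succinate, 0.899, 0.876 and 0.697 in *Ptk6*-/- controls and 0, 0.427 and 0.577 in *Ptk6*-/- mice given succinate. Its female values were 0.460, 0.324 and 0.287 CPM in wild type controls, 2.75, 3.80 and 2.01 in wild type mice given succinate, 0.118, 0.191 and 0 in *Ptk6*-/- controls and 0.522, 0.296 and 2.00 in *Ptk6*-/- mice given succinate. The 3 wild type females given succinate stood above all other mice, of which replicate 3 of the *Ptk6*-/- females given succinate came closest, and counts were low, between 0 and 119. Between the wild type females the log2 difference came to 3.00 (standard error 0.46, edgeR adjusted p = 0.184), with adjusted p values of 6.86e-06 to 0.903 over the alternatives. The upper bound was reached without replicate 2 of the wild type control females, and without replicate 2 of the succinate-treated group, which held heart transcripts, the difference was 2.76 (edgeR adjusted p = 0.435).

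For wild type males edgeR called 0 of 43 P450 genes, as of all genes (0%), and DESeq2 called 0 of 43, where it called 0.246% of all genes. Unadjusted p values under 0.05 were seen for 7 genes (4.07% of all genes), 2 higher and 5 lower, beside 2.74% and 1.33% of all genes, and 10 genes did not overlap between the groups (8.77%). Lowest among these were *Cyp3a25*, at -1.17 (standard error 0.34, edgeR adjusted p = 0.947), and *Cyp2c55*, at -0.75 (standard error 0.23, edgeR adjusted p = 0.947). Without replicate 1 of the succinate-treated wild type males, edgeR called *Cyp3a25* (-1.41, adjusted p = 0.0369) and *Cyp2s1* (-1.02, adjusted p = 0.00729), where 5.8% of all genes were called. For *Ptk6*-/- males, edgeR and DESeq2 called 0 of 42 genes, beside 0% of all genes by edgeR and 0.207% by DESeq2. There 1 gene, *Cyp2b10*, had an unadjusted p under 0.05 (7.75% of all genes, 2.09% lower and 5.66% higher), with a log2 difference of -0.88 (standard error 0.32, edgeR adjusted p = 0.6), and 7 genes did not overlap (23%). Of the 42 genes, *Cyp2c67* and *Cyp2t4* passed the minimum of this fit only through the controls. *Cyp2b10* (ENSMUSG00000030483, chromosome 7, 25597045 to 25626049, plus strand), named after its values were seen, was in males at 53.9, 49.3 and 36.9 CPM in wild type controls, 32.9, 54.0 and 32.7 in wild type mice given succinate, 46.9, 54.9 and 31.1 in *Ptk6*-/- controls and 14.3, 25.1 and 31.5 in *Ptk6*-/- mice given succinate. In females *Cyp2b10* was at 69.7, 29.4 and 95.8 CPM in wild type controls, 5.69, 1.27 and 53.6 in wild type mice given succinate, 16.6, 13.3 and 29.1 in *Ptk6*-/- controls and 14.9, 1.87 and 0.577 in *Ptk6*-/- mice given succinate. *Ptk6*-/- females given succinate reached the lowest value of all 24 mice, 0.577 CPM, and replicate 3 of the wild type females given succinate remained at 53.6.

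**Figure D3:**
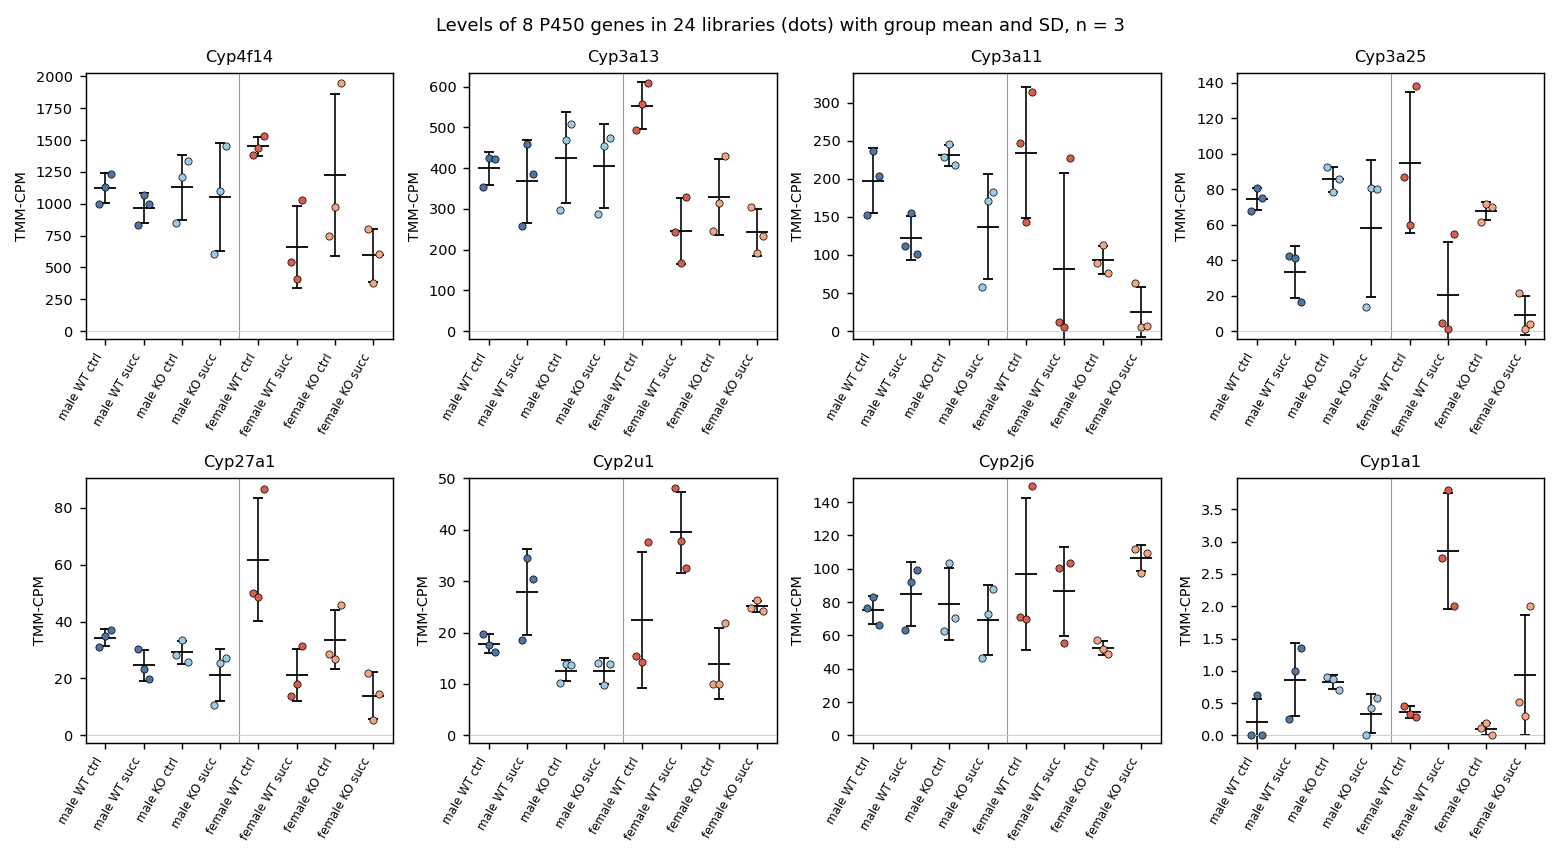
TMM-normalised CPM of 8 cytochrome P450 genes in the 8 groups, with 1 point per mouse, the mean as a line and the SD as a bar cut off at the lower end of the axis (n = 3 mice per group). Cyp3a11 and Cyp3a25 lie near 0 in most succinate-treated females and not in replicate 3 of the wild type, while Cyp2j6 lies above its controls in the succinate-treated Ptk6-/- females.

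Some sums of cell type markers also differed between control and succinate-treated females, in either direction, and others overlapped. The summed P450 level was 3459 to 4770 CPM in wild type control females and 1157 to 3273 after succinate, and 2186 to 4338 and 1097 to 2341 in *Ptk6*-/- females. Per 1000 CPM of enterocyte markers the same sum was 128 to 152 and 105 to 151 in wild type females and 124 to 148 and 136 to 193 in *Ptk6*-/- females, so that control and succinate-treated females overlapped in both genotypes. The sum of 7 enterocyte markers was 26966 to 31342 CPM and 9511 to 21608 in the same wild type groups, and 15828 to 29326 and 5690 to 13898 in the *Ptk6*-/- groups. In males the enterocyte sum was 13799 to 25271 CPM in all 4 groups and the P450 sum 1591 to 3703. Markers of the distal intestine (5 genes) summed to 1873 to 3345 CPM and 453 to 1661 in the wild type females, and 862 to 2829 and 344 to 712 in the *Ptk6*-/- females, without overlap in either. In males they were at 901 to 9462 CPM over the 4 groups. Markers of the proximal intestine (5 genes) were at 446 to 832 CPM and 276 to 698 in the wild type females, with medians of 787 and 417, and at 398 to 632 and 151 to 481 in the *Ptk6*-/- females, with medians of 519 and 462. They overlapped in both genotypes of females and in *Ptk6*-/- males, and were lower without overlap after succinate in wild type males (500.3 to 565 and 267 to 482 CPM). Smooth muscle markers (5 genes) were at 2993 to 3791 CPM in wild type control females and at 7020, 6915 and 3609 after succinate, so that replicate 3 lay nearest to the controls, and at 1944 to 4299 and 3431 to 4711 in *Ptk6*-/- females. Tuft markers (5 genes) summed to 11.2 to 21.5 CPM in the 12 controls, 20.9 to 31.9 in succinate-treated males and 38.9 to 139.7 in succinate-treated females. In bulk tissue, fewer cells of a type and less RNA per cell cannot be told apart. The part of these markers in the P450 values was not tested.

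Other marker sums also separated groups without overlap. In males, lymphoid markers were at 25.5 to 67.6 CPM in wild type controls and 76.5 to 102 after succinate, and at 21.8 to 37.6 in succinate-treated *Ptk6*-/- mice. Goblet markers were at 7770 to 8836 CPM in wild type and 10408 to 13212 in *Ptk6*-/- control males, and at 8587 to 10016 and 11293 to 14131 under succinate. Proximal intestine markers differed between the genotypes of control males (at most 565 CPM in wild type and at least 578 in *Ptk6*-/- mice). In *Ptk6*-/- males, smooth muscle markers were at 1622 to 2503 CPM in controls and 2512 to 2646 after succinate, and heart markers at 13.2 to 32.1 and 39.4 to 208. Hepatocyte markers, at most 6.03 CPM in any mouse, were lower after succinate in females of both genotypes and in *Ptk6*-/- than in wild type control males. Lung markers were lower after succinate in *Ptk6*-/- females (10.6 to 17.1 and 6.08 to 10.2 CPM). Paneth, macrophage, adipocyte and acinar sums overlapped in each of the 8 comparisons. The part of these sums was not tested either.

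Levels of 9 genes were also set against the enterocyte markers, as CPM per 1000 CPM of the marker sum. *Cyp4f14* was 48.9 to 53.3 in wild type control females and 35.9 to 47.5 after succinate, and 46.6 to 66.3 and 52.1 to 66.9 in *Ptk6*-/- females. Relative to the same markers, *Cyp3a25* was 2.22 to 4.40 and 0.106 to 2.53 in wild type females and 2.38 to 3.90 and 0.218 to 1.54 in *Ptk6*-/- females. *Cyp27a1* ran from 1.28 to 1.81 in *Ptk6*-/- control females to 0.974 to 1.58 after succinate, so that the groups overlapped on this scale, as they did in wild type females (1.81 to 2.76 and 0.916 to 1.89). *Cyp2j6* was 2.60 to 4.77 and 4.78 to 6.62 in wild type females and 1.66 to 3.60 and 8.06 to 17.1 in *Ptk6*-/- females. *Cyp2u1* was 0.528 to 1.20 and 1.50 to 3.98 in wild type females, and 0.476 to 0.748 and 1.78 to 4.63 in *Ptk6*-/- females. Both genes were higher per marker after succinate in each genotype, without overlap. *Cyp3a13* was 18.1 to 20.7 and 15.2 to 17.6 in wild type females and 14.6 to 15.5 and 19.9 to 33.5 in *Ptk6*-/- females, lower in the former and higher in the latter, without overlap in either. *Cyp4f14* was lower without overlap in wild type females and *Cyp3a25* in *Ptk6*-/- females. For *Cyp3a11*, *Cyp4v3* and *Cyp2b10* the control and succinate-treated females overlapped in both genotypes. The part of the cell make-up in the P450 levels was not tested further.

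**Figure D4:**
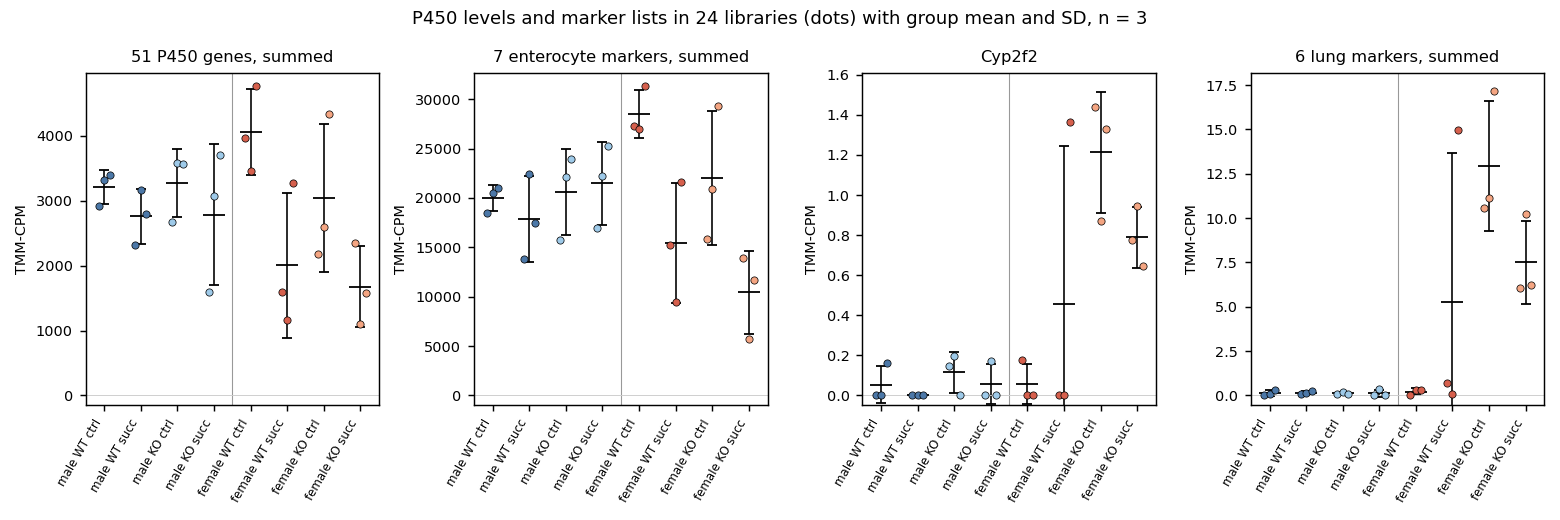
Summed CPM of the 51 cytochrome P450 genes, of 7 enterocyte markers, of Cyp2f2 and of 6 lung markers in each mouse of the 8 groups (3 points per group, with the mean as a line and the SD as a bar, cut off at the lower end of the axis). The group means of the P450 and enterocyte sums are lowest in the succinate-treated females, and Cyp2f2 and the lung markers stand above all other libraries in the same 7 female libraries.

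The genotypes were compared next, to see which genes differ with loss of *Ptk6*. On average over sexes and treatments edgeR called 0 of 51 P450 genes, beside 0.0184% of all genes, and DESeq2 called 0 of the 46 to which it gave an adjusted p, beside 0.289% of all genes. Unadjusted p values under 0.05 were found for 10 genes, 3 higher and 7 lower in *Ptk6*-/- mice, where 13.4% of all genes had one (5.83% higher and 7.52% lower). The median log2 difference was -0.18 (-0.14 with bounds for genes at 0), and -0.03 over all genes. *Cyp2u1* had the smallest p of the P450 genes, at -0.75 (standard error 0.18, edgeR adjusted p = 0.197), with adjusted p values of 0.0195 to 0.414 over the alternatives. Its *Ptk6*-/- males lay below the wild type males in each treatment, and among females the succinate-treated groups did not overlap. *Cyp2c29* (edgeR adjusted p = 0.284) had in males 0, 8 and 0 counts in wild type controls, 12, 23 and 15 in wild type mice given succinate, 0, 0 and 0 in *Ptk6*-/- controls and 0, 0 and 0 in *Ptk6*-/- mice given succinate. In females *Cyp2c29* had 4, 0 and 0 counts in wild type controls, 15, 4 and 0 in wild type mice given succinate, 0, 0 and 0 in *Ptk6*-/- controls and 41, 14 and 22 in *Ptk6*-/- mice given succinate. All 6 *Ptk6*-/- males were at 0, and the wild type males given succinate were the only males above 8 counts, which in the succinate-treated males is at least 1.07-fold against the floor of 3 counts per library. In the fits of 6 libraries *Cyp2c29* passed the minimum there, and for succinate in wild type males, only through the wild type males given succinate, where it is high. With the Cyp2c genes summed to 1 row the average log2 difference was 0.0023. *Cyp11a1* (ENSMUSG00000032323, chromosome 9, 57913694 to 57934306, plus strand), the cholesterol side-chain cleavage enzyme that starts steroid synthesis, followed (edgeR adjusted p = 0.313). Males had 2, 3 and 3 counts in wild type controls, 46, 0 and 72 in wild type mice given succinate, 0, 8 and 0 in *Ptk6*-/- controls and 0, 0 and 0 in *Ptk6*-/- mice given succinate of *Cyp11a1*. Females had 7, 2 and 3 counts in wild type controls, 0, 6 and 9 in wild type mice given succinate, 0, 0 and 0 in *Ptk6*-/- controls and 0, 26 and 8 in *Ptk6*-/- mice given succinate. Counts above 10 were found in only 3 mice, 2 wild type males and 1 *Ptk6*-/- female, all given succinate.

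Within the controls, edgeR called 0 of 42 P450 genes in males, where 0.739% of all genes were called, and DESeq2 called *Cyp26b1* and *Cyp2e1*, and 2.23% of all genes. In these males 7 genes had an unadjusted p under 0.05, 5 higher and 2 lower in *Ptk6*-/- mice, against 25.2% of all genes (12.7% higher and 12.5% lower), and 9 genes did not overlap, against 31.4%. *Cyp2c66* gave 0.72 (standard error 0.18, edgeR adjusted p = 0.0559), *Cyp26b1* 1.16 (standard error 0.35, edgeR adjusted p = 0.0883) and *Cyp2e1* 1.27 (standard error 0.44, edgeR adjusted p = 0.122). *Cyp2c66* was 8.49, 9.03 and 6.99 CPM in wild type and 15.4, 12.5 and 12.9 in *Ptk6*-/- control males, without overlap, and its adjusted p was 0.00378 to 0.931 over the alternatives. In control females edgeR called 0 of 40 genes, where 0.0158% of all genes were called, and DESeq2 called *Cyp2b10* and *Cyp3a11*, and 1.72% of all genes. Of the 7 genes with an unadjusted p under 0.05 (11.1% of all genes), 6 were lower and 1 higher in *Ptk6*-/- mice, beside 5.03% and 6.08% of all genes. The higher gene was *Cyp2f2*, which, like *Cyp1a1*, passed the minimum of this fit through 1 group only. The groups did not overlap for 13 genes, against 18.9% of all genes, and the median log2 difference was -0.32, beside 0.04 over all genes. *Cyp3a11* gave -1.29 (standard error 0.34, edgeR adjusted p = 0.367) and *Cyp2b10* -1.69 (standard error 0.47, edgeR adjusted p = 0.367). Their values in *Ptk6*-/- control females, 77.0 to 114 CPM for *Cyp3a11* and 13.3 to 29.1 for *Cyp2b10*, were all below those of wild type control females. Without replicate 3 of the *Ptk6*-/- control females, edgeR called *Cyp2b10* (-2.06), *Cyp4b1* (-1.30) and *Cyp27a1* (-1.10), with adjusted p values of 0.0275 to 0.0424, where 9.65% of all genes were called. Enterocyte markers in these females were 26966 to 31342 CPM in wild type and 15828 to 29326 in *Ptk6*-/- mice and overlapped. Lymphoid markers (5 genes; 17.9 to 32.7 and 39.7 to 55.4 CPM) and lung markers (6 genes; 0 to 0.331 and 10.6 to 17.1 CPM) did not. The part of these markers was not tested.

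The genotypes were compared in the same way under succinate. In males 0 of 41 were called by edgeR and by DESeq2, with 0% of all genes called by edgeR and 0.356% by DESeq2. Among them 3 genes had an unadjusted p under 0.05 (2.72% of all genes), 1 higher and 2 lower in *Ptk6*-/- mice (1.1% and 1.62%), and 7 did not overlap (8.66%). *Cyp2c29* was 1 of the 3 genes. *Cyp2u1*, at -1.12 (standard error 0.34, edgeR adjusted p = 1.00), was lower in each *Ptk6*-/- male than in each wild type male, and *Cyp2e1*, at 1.66 (standard error 0.53, edgeR adjusted p = 1.00), was higher. In females edgeR called 0 of 41, again with 0% of all genes, and DESeq2 called 0 of 39, with 0.15% of all genes. There 2 genes, *Cyp46a1* and *Cyp2u1*, had an unadjusted p under 0.05 (4.52% of all genes), both lower in *Ptk6*-/- mice (2.9% of all genes were, and 1.62% were higher), and 6 did not overlap (10.8%). *Cyp46a1* was 0.416, 1.39 and 0.592 CPM in wild type and 0.216, 0.197 and 0.220 in *Ptk6*-/- females, a log2 difference of -1.88 (standard error 0.68, edgeR adjusted p = 0.931). It was -1.26 without the wild type library that held heart transcripts, which had the 1.39 CPM.

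The sexes were compared as an average over genotypes and treatments, and edgeR called 0 of 51 P450 genes, where 0.36% of all genes were called. DESeq2 called 0 of 46, where it called 1.56% of all genes. Unadjusted p values under 0.05 were found for 8 genes, 3 higher and 5 lower in females, against 15.3% of all genes (8.65% higher and 6.63% lower). The median log2 difference was -0.10 (-0.14 with bounds), and 0.03 over all genes. *Cyp2f2* (ENSMUSG00000052974, chromosome 7, 26819334 to 26833085, plus strand), known from the club cells of mouse airways, had the smallest p (edgeR adjusted p = 0.133). Males had 0, 0 and 8 counts in wild type controls, 0, 0 and 0 in wild type mice given succinate, 8, 10 and 0 in *Ptk6*-/- controls and 0, 6 and 0 in *Ptk6*-/- mice given succinate of *Cyp2f2*. Females had 8, 0 and 0 counts in wild type controls, 0, 0 and 53 in wild type mice given succinate, 61, 41 and 46 in *Ptk6*-/- controls and 43, 48 and 38 in *Ptk6*-/- mice given succinate of *Cyp2f2*. All 6 libraries of *Ptk6*-/- females and replicate 3 of the wild type females given succinate held 38 to 61 counts, and the other 17 libraries held 0 to 10. Those 7 libraries also contained 209 to 404 counts of *Scgb1a1*, 72 to 170 of *Sftpc*, 15 to 52 of *Sftpa1*, 12 to 31 of *Sftpb*, 3 to 15 of *Sftpd* and 0 to 17 of *Scgb3a2*, all defining genes of lung epithelium. In the other 17 libraries the counts were at most 9, 6, 22, 16, 0 and 0 for these genes, in that order. In sum the 6 lung markers were at 6.08 to 17.1 CPM in *Ptk6*-/- females and at most 0.717 CPM outside the 7 libraries. Their part in the level of *Cyp2f2* was not tested.

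*Cyp7b1* (ENSMUSG00000039519, chromosome 3, 18126114 to 18297502, minus strand), which encodes the 7-alpha-hydroxylase of oxysterols, was next for sex, at 0.68 (standard error 0.22, edgeR adjusted p = 0.162). *Cyp7b1* in males was at 1.54, 2.07 and 1.62 CPM in wild type controls, 1.83, 2.23 and 3.11 in wild type mice given succinate, 1.61, 1.02 and 1.37 in *Ptk6*-/- controls and 2.47, 1.48 and 1.55 in *Ptk6*-/- mice given succinate. *Cyp7b1* in females was at 2.08, 3.61 and 2.89 CPM in wild type controls, 5.32, 2.56 and 1.55 in wild type mice given succinate, 1.87, 1.17 and 1.93 in *Ptk6*-/- controls and 4.06, 6.65 and 2.39 in *Ptk6*-/- mice given succinate. The 3 highest values were those of succinate-treated females, and males and females overlapped. Its adjusted p was 0.0425 without replicate 3 of the wild type females given succinate and 0.314 without replicate 2 of the succinate-treated *Ptk6*-/- females. *Cyp2c67* (ENSMUSG00000062624, chromosome 19, 39597286 to 39637495, minus strand; edgeR adjusted p = 0.186) had in males 0, 20 and 9 counts in wild type controls, 18, 0 and 7 in wild type mice given succinate, 40, 11 and 22 in *Ptk6*-/- controls and 0, 8 and 0 in *Ptk6*-/- mice given succinate. In females *Cyp2c67* had 18, 0 and 41 counts in wild type controls, 0, 0 and 0 in wild type mice given succinate, 0, 0 and 0 in *Ptk6*-/- controls and 9, 0 and 0 in *Ptk6*-/- mice given succinate. It was detected in 8 of 12 males and 3 of 12 females. Single libraries changed the number of calls for sex. Without replicate 3 of the wild type females given succinate edgeR called 5 genes, all lower in females, where 1.97% of all genes were called. These were *Cyp3a11* (-1.83), *Cyp2c66* (-1.76), *Cyp2c55* (-1.59), *Cyp2b10* (-1.56) and *Cyp3a25* (-1.56). Without replicate 1 of the succinate-treated *Ptk6*-/- females it called *Cyp2e1* (-2.58, adjusted p = 0.0455) and 0.476% of all genes.

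Interaction terms of the same fit tested whether these effects differed, and edgeR called 0 of 51 P450 genes in each of the 5. DESeq2 called 0 of 51 for genotype by succinate in males (0.491% of all genes called), the same term in females (0.26%), sex by genotype (0.0881%) and sex by succinate (0.96%), and 0 of 46 for the interaction of all 3 factors (0.478%). Between genotype and succinate in males 2 genes had an unadjusted p under 0.05 (0% of all genes called, 3.95% with an unadjusted p under 0.05), and in females 5 (0% and 8.21%). For sex by genotype the number was 0 (0% and 4.58%), and for the interaction of all 3 factors 3 (0% and 5.99%). For sex by succinate it was 9, where 0.0738% of all genes were called and 8.27% had such a p (4.28% lower and 3.99% higher). Of these 9, *Cyp2c40*, *Cyp2c68*, *Cyp2c23*, *Cyp4f14*, *Cyp3a13*, *Cyp27a1*, *Cyp4f13* and *Cyp4f40* had a lower succinate effect in females than in males, and *Cyp1a1* a higher one. The smallest adjusted p was that of *Cyp2c40*, with a difference between the succinate effects of -1.60 (standard error 0.47, edgeR adjusted p = 0.245). *Cyp2c40* was 3.63, 3.82 and 6.91 CPM in wild type control females and 1.48, 0.843 and 2.58 after succinate, and 3.24, 2.57 and 2.79 and 2.11, 3.10 and 2.15 in wild type males. The *Ptk6*-/- males had 1.30, 2.43 and 2.03 CPM as controls and 5.21, 1.99 and 2.73 after succinate, and the 5.21 came from 19 counts in a library that stood apart. Its *Ptk6*-/- females went from 2.76, 2.87 and 3.44 to 2.36, 0.908 and 0.780. Without replicate 3 of the wild type females given succinate, edgeR called *Cyp2c68* for this interaction (-1.73, adjusted p = 0.0491) and 0.753% of all genes. Among females, the term for genotype and succinate of *Cyp2j6* came to 1.18 (standard error 0.44, edgeR adjusted p = 0.498), and that of its neighbour *Cyp2j9* to 1.43 (standard error 0.46, edgeR adjusted p = 0.468). An effect seen in 1 sex or genotype above was not shown by these tests to differ from that in the other.

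Genes that work with the P450 enzymes were read from fixed lists. Of 12 genes for redox partners and haem supply, edgeR called 0 in any comparison, and for the average succinate effect 3 were higher and 1 lower at an unadjusted p under 0.05. *Por*, the P450 reductase, averaged 86.9 ± 10.1 CPM (SD, n = 3) in the lowest group, the *Ptk6*-/- control females, and 134.3 ± 18.4 in the highest, the *Ptk6*-/- control males. Its average succinate effect was -0.03 (edgeR adjusted p = 0.951). At an unadjusted p under 0.05, 6.94% of all genes were lower and 9.17% higher after succinate on average. Of 21 receptor genes, 8 were lower and 0 higher, and of 10 targets of the pregnane X and constitutive androstane receptors 4 were lower and 0 higher. For 7 targets of the aryl hydrocarbon receptor other than the P450 genes the numbers were 0 and 0, and for 10 targets of PPAR alpha 1 was higher. Between the genotypes of control males, 7 receptor genes were higher and 1 lower in *Ptk6*-/- mice at that p. Of the pregnane X and constitutive androstane receptor targets 4 were higher and 0 lower, where 12.7% and 12.5% of all genes were. There 2 receptor genes and 1 such target passed the adjusted p threshold, under 2-fold. *Nr1h4*, which encodes the bile acid receptor FXR, was called for any difference among the groups (range 1.41, edgeR adjusted p = 0.0274) and had an average succinate effect of -0.75 (standard error 0.15, edgeR adjusted p = 0.0179), under 2-fold. *Nr1h4* was at 62.3 to 86.2 CPM in wild type control females and 19.1 to 52.2 after succinate, and at 65.4 to 99.3 and 20.4 to 41.5 in *Ptk6*-/- females, without overlap. In males it was 68.6 to 70.2 and 48.8 to 62.4 in wild type and 77.7 to 83.2 and 54.3 to 91.4 in *Ptk6*-/- mice. Without the 3 libraries that stood apart the adjusted p of *Nr1h4* was 0.0477 for any difference and 0.0516 for succinate. *Pdk4*, a PPAR alpha target for a kinase that restrains pyruvate use, was at 5.57 to 8.66 CPM in *Ptk6*-/- control males and 2.43 to 3.40 in wild type control males, a log2 difference of 1.30 (standard error 0.26, edgeR adjusted p = 0.0384). It was also called for any difference (range 4.96, edgeR adjusted p = 0.00688), which rested on 251.5 CPM in the library with heart transcripts. Without the libraries that stood apart its range was 1.48 (edgeR adjusted p = 0.420).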

How the data were processed

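Poly(A) RNA of the distal jejunum of 24 mice was sequenced, with 1 library per mouse. Per the labels, the authors used FastQC, StringTie and the GRCm39 build, and they deposited raw counts per gene and FPKM per gene. The program that made the counts is not given in the sources used here. The deposited FPKM served to compare genes and the deposited counts all tests. No value column was left without a sample (0 columns).

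Counts were tested with edgeR 4.0.16 in R 4.3.3 (TMM, quasi-likelihood, Benjamini-Hochberg over all genes that reached 10 counts in 3 or more libraries of the fit). Each of 8 pairs of groups was fitted on its 6 libraries, and average effects, interactions and any difference among groups were fitted on all 24. A gene was called at an adjusted p under 0.05 and at least 2-fold. Alternatives were DESeq2 1.42.0, its size factors, no filter, the replicate number, gene length, no fold threshold, libraries left out and subfamily sums. The genes and lists were chosen with earlier results of these data known. Values in every library are given for called genes, for the 6 highest by FPKM and for the 3 smallest p values of each average effect. The steps were tested on simulated data. The p-values set a difference between groups against the spread between mice of a group, and no batch is given in the labels.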

Additional observations from a re-analysis of the deposited data

Results flagged for a closer look

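*Cyp1a1* stood out because 2 groups of mice differed in opposite directions under the same contrast, without overlap between the groups compared. Its log2 difference between *Ptk6*-/- and wild type was 1.73 in control males (standard error 1.13, edgeR adjusted p = 0.387) and -1.68 in control females (standard error 0.99, edgeR adjusted p = 0.542). After succinate it was -0.96 in *Ptk6*-/- males (standard error 0.63, edgeR adjusted p = 0.643) and 3.10 in *Ptk6*-/- females (standard error 1.13, edgeR adjusted p = 0.429). These 2 differences were not tested themselves. The averaged sex by genotype interaction of *Cyp1a1* was -2.02 (edgeR adjusted p = 1.00) and its averaged sex by succinate interaction 2.63 (edgeR adjusted p = 0.502). The search covered 8 pairs of comparisons and 51 genes, and *Cyp1a1* had 0 to 119 counts per library. It passed the minimum in control females only through the wild type group. For succinate in *Ptk6*-/- females it passed only through the succinate-treated group. The log2 differences of those fits, -1.68 and 3.10, were favoured by the filter and are given only as a description.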

How the results depend on the processing

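Of the other settings, DESeq2 called more P450 genes than edgeR in 6 comparisons: 2 in control males, 2 in control females, 2 for succinate in wild type females, 4 for succinate in *Ptk6*-/- females, 2 for average succinate and 8 for any difference among groups, where edgeR called 0, 0, 0, 0, 0 and 1. DESeq2 called 2.23%, 1.72%, 1.38%, 2.25%, 1.92% and 9.74% of all genes there. With no fold threshold 1 gene was called for average succinate (1.03% of all genes). For any difference, 2 genes were called with no filter on low counts (2.13% of all genes) and 0 with the replicate number as a block (0.867%), with that block and a gene length offset (0.88%), or without the 3 libraries that stood apart (0.892%). With the replicate block the adjusted p of *Cyp2u1* was 0.0535, and 0.0745 with the length offset added. Same-numbered mice did not deviate together (median r -0.011 over 84 pairs, 20 above 0.1, against 0.0081 over 168 differently numbered pairs), so the number was not taken as a pairing. Leaving out 1 library at a time gave 0 to 3 called genes in control females, 0 to 2 for succinate in wild type males, 0 to 11 in wild type females and 0 to 1 in *Ptk6*-/- females, 0 to 10 for average succinate, 0 to 5 for average sex, 0 to 1 for sex by succinate and 0 to 11 for any difference, and 0 to 0 in the other comparisons. The fits with the highest of these counts called 9.65%, 5.8%, 3.23%, 0.154%, 2.49%, 1.97%, 0.753% and 6.24% of all genes, in that order. The cause was not tested. With subfamilies summed to 1 row, *Cyp2c29* changed direction for genotype in succinate-treated males (0.21), for succinate in *Ptk6*-/- females (-1.20) and for average genotype (0.0023), as did *Cyp2d40* for genotype by succinate in males (-0.33), where the summed row is made up mostly of other genes. In 23 of the genes at least 1 library had 0 counts.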
